A study of Mus musculus with 16 samples.

Results

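The m6A regions described here are those of 4 immunoprecipitation (IP) libraries of mouse cortical peri-infarct tissue, 2 from the Sham group and 2 from the group with middle cerebral artery occlusion for 2 h and reperfusion for 24 h (MCAO/R-24 h, labelled Re-24 h). Peaks of the 4 lists were merged into a region wherever they had 1 or more bases of exon in common on one strand, by the exons of GENCODE M39 on GRCm39. The 80244 peaks gave 39290 regions, against 169564 peaks and 52776 regions over all 8 IP libraries of the series. All mice were adult male C57BL/6J, 6 to 8 weeks old at surgery, under the same anaesthesia. A nylon filament was passed into the internal carotid artery of the Re-24 h mice, on the right side, and withdrawn after 2 h, and Sham mice had the same operation without the filament. The methods give 6 mice per surgery group and do not state which animals entered which library. The spread between the 2 libraries of a group may therefore be technical. The Sham lists held 18775 and 20152 peaks and the Re-24 h lists 19072 and 22245.

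N6-methyladenosine is set on mRNA by the METTL3 and METTL14 writer complex, mostly within the consensus RRACH (R is A or G, H is A, C or T), and it is enriched around stop codons and in long exons. Reader proteins of the YTH family bind it and alter the decay or translation of the transcript. In methylated RNA immunoprecipitation sequencing (MeRIP-seq), RNA is broken into short fragments, those with m6A are pulled down with an antibody, and stretches with more IP than input reads are called as peaks. Peri-infarct cortex, the rim of living tissue around an ischaemic core, is known for reactive astrocytes, activated microglia, stress-induced transcription and the loss of synapses. A peak needs both a modified site and enough RNA to be called. The input libraries are not analysed here, and the part of RNA abundance in each result was not tested. Fewer cells of a type and less RNA per cell cannot be told apart in such bulk tissue.

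A region was called Re-24 h-only when it was present in both Re-24 h lists and absent from both Sham lists, and Sham-only in the opposite case. The score of a peak has no defined scale, so it was used only as a rank, the percent of the peaks of the same list with a lower score. Sequences from 14 regions on which the results turn are shown first, each as 29 bases of GRCm39 read 5′ to 3′ on the strand of the gene. Capitals mark the GGACT word, or in its absence the RRACH word, nearest to the middle of the region. GGACT (the DNA letters of GGACU) was searched on the transcript strand alone and is itself 1 of the RRACH words. It occurred in 22.1% of the Re-24 h-only regions, 21.2% of the Sham-only regions and 20.2% of all regions, whose median lengths were 175, 150 and 100 nt. The first 6 are from Re-24 h-only regions of a vascular GTPase, a pair of receptors and a secreted protein of injured tissue, an injury-induced matrix protein and an immediate early factor.
Rhoj, 3' UTR, chr12:75447746-75447774, plus strand: cagaagatagggGGACTgctcttgcaaaa
Cd44, 3' UTR, chr2:102644403-102644431, minus strand: tcctgggagctgGGACCctccacagatgc
Ptx3, 3' UTR, chr3:66132715-66132743, plus strand: cgaatgaaggagAGACTtgagattgtctt
Osmr, coding sequence, chr15:6845117-6845145, minus strand: gcacaccaacttGGACTattggctccacc
Tnc, coding sequence, chr4:63935410-63935438, minus strand: gcgctgtccccgGGACTgtagccagcggg
Junb, 3' UTR, chr8:85703886-85703914, minus strand: agctcacacactGGACTccggcccgcccg
The next 5 are from Sham-only regions of neuronal genes and of the NF-kB inhibitor Nfkbia.
Pde1a, 3' UTR, chr2:79666892-79666920, minus strand: gtcaacaagcaaGGACAacaagaagaaaa
Map1b, 3' UTR, chr13:99558554-99558582, minus strand: atttaaccagctGAACAccacaccaaaag
Cacna1a, 3' UTR, chr8:85366623-85366651, plus strand: cagtttttaaaaGGACAaaaaaaaattga
Kcna1, coding sequence, chr6:126618882-126618910, minus strand: aggctaatatcaGAACTggtaactgcacc
Nfkbia, 3' UTR, chr12:55536667-55536695, minus strand: caaaaagaatgtGGACTtgtatatttgta
The last 3 are from regions found in all 4 lists whose ranks lay far apart between the groups.
Hspa1a, 3' UTR, chr17:35188583-35188611, minus strand: ttctttgtgtttGGACTctcccctgggcc
Ifit3b, 3' UTR, chr19:34590160-34590188, plus strand: tcctggcaccatGAACCtgaggacaaccg
Kcnj16, 3' UTR, chr11:110916691-110916719, plus strand: gcagagcaggttAAACTtggtgaattatt

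Of the 39290 regions, 1468 were Re-24 h-only (3.74%, in 1321 genes) and 1090 were Sham-only (2.77%, in 972 genes). With every list cut to the 18775 peaks of the shortest, the counts lay closer together, at 1298 Re-24 h-only and 1119 Sham-only regions. The 4 lists can also be divided into mixed pairs, with 1 Sham and 1 Re-24 h list on either side, and these are given for comparison. They are not a pure measure of the spread between libraries. Their counts also vary with the length of the lists, and a region that follows the group cannot fall in a mixed pair. Sham 1 with Re-24 h 1 had 765 regions of its own (1.95%) against 1258 for Sham 2 with Re-24 h 2 (3.2%). Sham 1 with Re-24 h 2 had 1014 (2.58%) against 835 for Sham 2 with Re-24 h 1 (2.13%). The division by group thus gave 2558 regions against 2023 and 1849 for the mixed divisions, an excess of 622 over their mean. With the same number of peaks in every list the excess was 634.5. With 3 divisions, the smallest value an exact permutation test of 2 lists against 2 can reach is p = 0.333, and none is reported. With 1 list left out, each division sets a lone list against 2, so regions found only in the lone list enter its count. The excess was 401 without Sham replicate 1, 2096.5 without Re-24 h replicate 1 and 329 without Re-24 h replicate 2. It was -50 without Sham replicate 2, where the division by group gave fewer regions than the mixed ones. These values vary with the regions of the lone list, so they cannot show how far the groups separate.

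**Figure D1:**
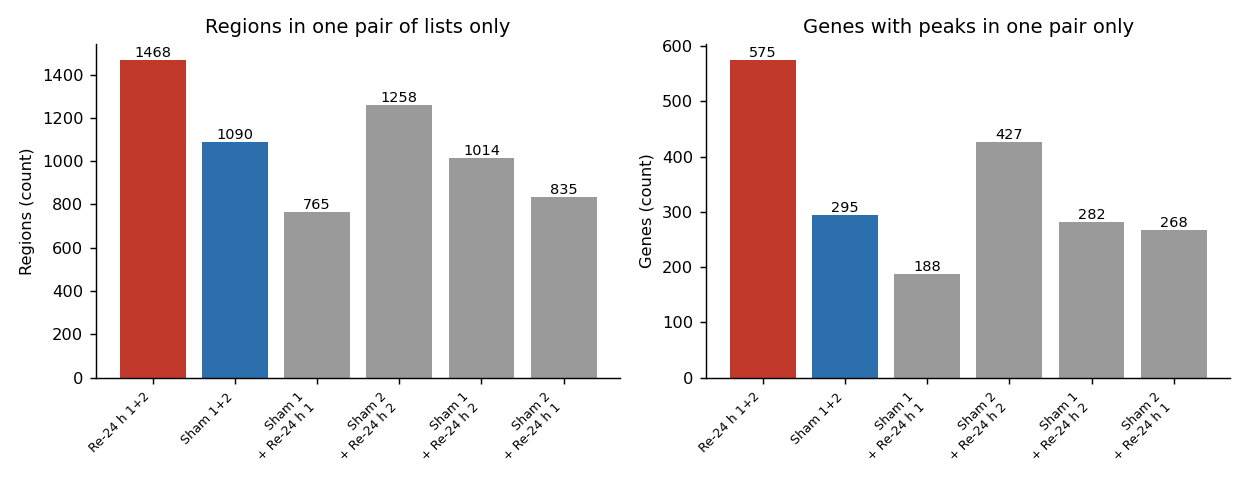
Number of regions (left, count) and of genes (right, count) found in both lists of 1 pair and in neither of the other 2 lists. Red, the Re-24 h pair. Blue, the Sham pair. Grey, the 4 mixed pairs. The Re-24 h bar is the highest in both panels, with 1468 regions and 575 genes, while the Sham bar of 1090 regions lies below the highest grey bar of 1258.

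Regions found in all 4 lists numbered 5905 (15.0%), and 23113 (58.8%) were found in a single list. Many of the regions on one side lay beside a peak of the other side. A Sham peak of the same gene lay within 100 nt of exon for 23.1% of the Re-24 h-only regions, and a Re-24 h peak for 26.1% of the Sham-only regions, against 24.8% to 33.1% on the mixed pairs. Genes without any Sham peak held 26.4% of the Re-24 h-only regions (387 of 1468). This compared with 15.3% (167 of 1090) for Sham-only regions in genes without a Re-24 h peak, and with 11.2% to 17.3% on the mixed pairs. Counted by gene, 575 of 11890 genes had peaks in both Re-24 h lists and in neither Sham list (4.84%), and 295 had the opposite pattern (2.48%). On the mixed pairs 188, 427, 282 and 268 genes did so.

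Among the protein-coding genes with no peak in either Sham list, the highest-ranking Re-24 h-only regions were in Mroh5, Rhoj, Tmem70, Slc14a1, Shld3, Ppm1g, Gm6569 and Add2. The region of Rhoj, a small GTPase known from endothelial cells, lay 459 nt past the stop codon and ranked at 89.3 and 94.2 in the Re-24 h lists. Slc14a1, the urea transporter that astrocytes also express, had a 3' UTR region at ranks 83.2 and 90.8. Shld3, a subunit of the shieldin complex of DNA end repair, had a coding region at 82.4 and 86.0. Mroh5 and Gm6569 overlap on opposite strands of chromosome 15, and since the strand setting of the peak calls is not given in the sources used here, these 2 are uncertain.

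The Sham-only regions highest by the same ranking, in genes without a Re-24 h peak, were in Tusc3, Gnal, Pde1a, Ypel5, Lysmd3, Cdk11b, Ralgapa1 and Ywhah. Pde1a encodes a calmodulin-dependent cyclic nucleotide phosphodiesterase of neurons. Its 3' UTR region ranked at 99.3 and 91.5 in the Sham lists and between 98.2 and 99.6 in the 4 lists of Re-0 h and Re-6 h, and was in neither Re-24 h list. Gnal, the olfactory-type G protein alpha subunit that couples dopamine receptors in the striatum, had a 3' UTR region at 95.6 and 97.3. Ypel5 had a region 46 nt past its stop codon at 93.6 and 91.2 in Sham, and at 89.8 to 94.1 in all 4 lists of the other times. Ralgapa1, a subunit of a GTPase-activating complex for Ral proteins, had a coding region at 79.3 and 81.0. Ywhah, a 14-3-3 adaptor protein, had a 3' UTR region at 82.9 and 75.0.

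Genes of reactive astrocytes, the hypertrophic astrocytes of injured tissue, carried the largest share of Re-24 h-only regions among the 38 gene lists. Of the 36 genes of the list, 20 had a peak in the 4 libraries, in 65 regions, and 12 of these regions (18.5%) in 10 genes were Re-24 h-only against 3.74% of all regions. A single region was Sham-only, and the mixed pairs had 0, 0, 0 and 1. In the order Sham 1, Sham 2, Re-24 h 1 and Re-24 h 2 the list had 11, 20, 29 and 47 peaks, or 0.0586%, 0.0992%, 0.152% and 0.211% of the peaks of each library. Both Re-24 h shares lay above both Sham shares. The 4 lists of Re-0 h and Re-6 h held 22 to 34 peaks of these genes. With the same number of peaks in every list, the count was again 12 Re-24 h-only and 1 Sham-only region. Without Sham replicate 1 it was 13 against 12, where 2448 and 7167 of all regions lay on these sides.

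The members of this group were surface receptors, secreted proteins and enzymes. Cd44, the hyaluronan receptor, had no peak in either Sham list and 2 and 3 in the Re-24 h lists, with a 3' UTR region at ranks 64.3 and 65.1. Ptx3, a secreted pentraxin of acute inflammation, had a 3' UTR region at 59.3 and 58.2, and no peak in the 6 other libraries of the series. Osmr, the oncostatin M receptor, had 0, 0, 2 and 6 peaks, and its coding region ranked at 51.2 and 72.8. B3gnt5, a glycolipid-synthesizing transferase, had a coding region at 55.6 and 63.7. Sphk1, which makes sphingosine 1-phosphate, had a coding region at 52.6 and 85.2, with 3219 nt of exon between it and the only Sham peak of the gene. Iigp1, an interferon-induced GTPase, had 0, 0, 3 and 2 peaks. Going the other way, Serpina3n, an acute-phase protease inhibitor, had 2, 4, 0 and 0 peaks, and its Sham-only region was low-ranking, at 5.76 and 21.5. Stat3, a transcription factor of astrocyte reactivity, had 1, 1, 0 and 0 peaks. Cd14, Cd44, Osmr and Stat3, all with peaks in 1 group only, were also members of the immune list, as were C3 and Cxcl10. Nes, the intermediate filament nestin, had a coding region in all 4 lists, at 72.9 and 71.0 in Sham and 97.8 and 98.2 in Re-24 h.

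**Figure D2:**
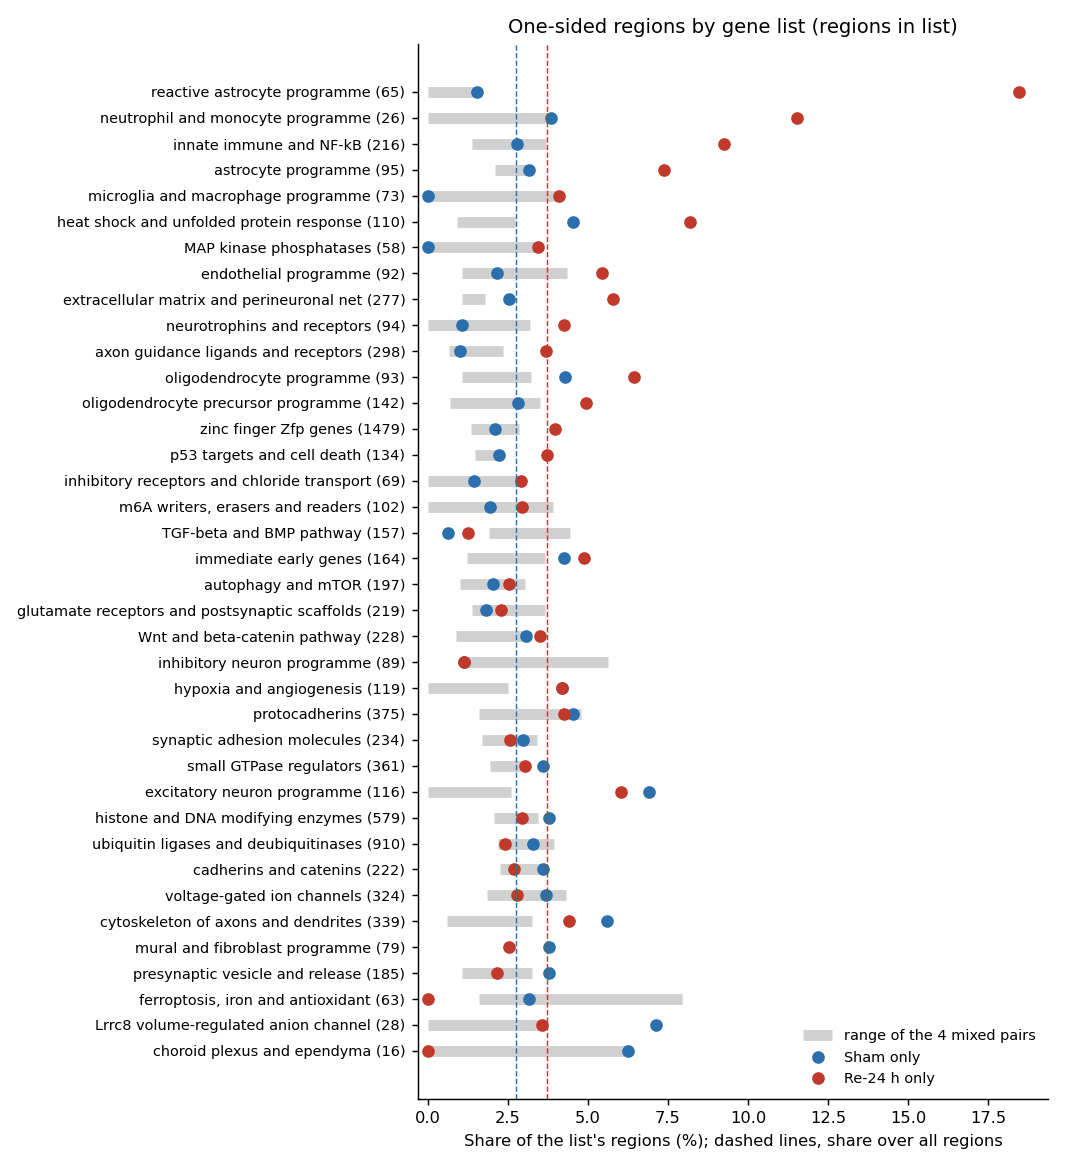
Share of the regions of each of 38 gene lists (number of regions in brackets) that were Re-24 h-only (red) or Sham-only (blue), in percent, with the range of the 4 mixed pairs as a grey bar. Dashed lines mark the shares over all regions, 3.74% and 2.77%. The reactive astrocyte list lies furthest to the right at 18.5%, and the lists are sorted by the difference of their red and blue points.

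The list of innate immune and NF-kB genes had 20 Re-24 h-only regions of 216 (9.26%), in 17 genes, and 6 Sham-only regions (2.78%), the latter at the level of all regions. The mixed pairs had 3, 8, 6 and 6. Without Sham replicate 1 there were 22 Re-24 h-only and 29 Sham-only regions, where 2448 and 7167 of all regions lay on these sides. The list held 0.431%, 0.506%, 0.666% and 0.620% of the peaks of the libraries in the same order, again without overlap between the groups, though the Re-0 h lists spanned 0.408% to 0.581%. Socs5, a suppressor of cytokine signalling, had a coding region at ranks 84.3 and 72.3, while the Sham lists together held 7 peaks elsewhere in the gene. C3ar1, the receptor of complement fragment C3a on microglia, had a coding region at 77.0 and 60.5. Of the 66 genes with a peak, 9 had peaks in both Re-24 h lists and neither Sham list, and 2 had the opposite pattern. Over all genes these shares were 4.84% and 2.48%. The 9 were C5ar1, Cd14, Cd274, Cd44, Irf3, Irf9, Osmr, Tlr13 and Tlr9. Tlr13, an endosomal receptor of bacterial RNA, had 0, 0, 3 and 5 peaks and none in the Re-0 h and Re-6 h lists. Cd14, the co-receptor of lipopolysaccharide, had 0, 0, 1 and 2 peaks and 8 in Re-6 h replicate 2.

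The Sham-only members included an inhibitor of NF-kB, an adaptor and a receptor subunit. Nfkbia, which holds NF-kB in the cytoplasm, had 2, 1, 0 and 0 peaks, with a region 39 nt past the stop codon at ranks 66.1 and 59.6. Tab2, an adaptor of the TAK1 kinase, lacked a 3' UTR region of ranks 64.1 and 77.1, and the gene had 13 other peaks summed over the Re-24 h lists. Il6st, the gp130 receptor subunit that pairs with the oncostatin M receptor, lacked a coding region of ranks 35.5 and 36.2.

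**Figure D3:**
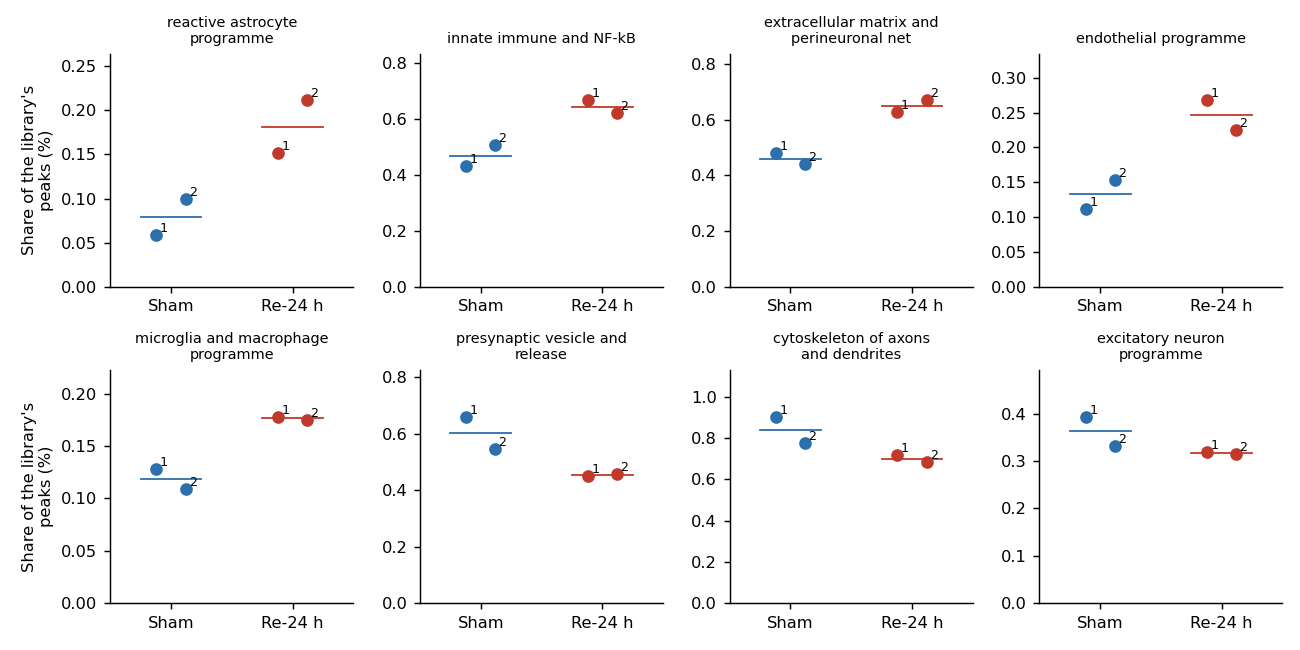
Share of the peaks of each library (percent) that lay in the genes of 8 lists, for Sham (blue) and Re-24 h (red). Each point is 1 library, numbered by its replicate, and lines are means of 2 libraries. The points of the groups do not overlap in any of these 8 panels, which were chosen after the values were seen, with Re-24 h higher in the first 5 lists and lower in the presynaptic, cytoskeleton and excitatory neuron lists.

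Markers of other cell types were counted beside these glial and immune genes, since the peri-infarct tissue holds blood vessels and invading cells. The endothelial list had 0.112% and 0.154% of the peaks in Sham and 0.267% and 0.225% in Re-24 h, with 5 Re-24 h-only and 2 Sham-only regions of 92. The Re-0 h lists were as high, at 0.247% and 0.291%. Pecam1, the adhesion molecule CD31 of endothelium, had 0, 0, 3 and 1 peaks. The microglia and macrophage list had 24, 22, 34 and 39 peaks, with 36 and 43 in the Re-0 h lists. Of the 4 defining markers of microglia, only Cx3cr1 went the same way, with 4, 3, 4 and 6 peaks. P2ry12 had 3, 3, 2 and 1, Csf1r 1, 2, 0 and 1, and C1qa 2, 0, 0 and 1. For neutrophils and monocytes, S100a8, Ly6g and Ccr2 had no peak in any of the 8 libraries, and Itgam had 0, 0, 0 and 1. The neutrophil and monocyte list rested on 6, 8, 12 and 17 peaks in 7 genes. Gfap and Camk2a, defining markers of astrocytes and excitatory neurons, had no peak in any library, and Mag of oligodendrocytes had none either, which a peak list can show for an expressed gene without a called m6A site. The part of cell composition in the results was not tested.

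Extracellular matrix genes had 16 Re-24 h-only regions of 277 (5.78%) and 7 Sham-only regions (2.53%), with 3 to 5 on the mixed pairs. The list held 90, 89, 120 and 149 peaks, or 0.479%, 0.442%, 0.629% and 0.670% of the peaks of each library. The shares were 0.549% and 0.689% in the Re-0 h lists and 0.554% and 0.599% in the Re-6 h lists. All of these lay above both Sham shares, so the higher share was not particular to Re-24 h. Of the 77 genes of the list with a peak, 10 had peaks in both Re-24 h lists and neither Sham list, and 1 had the opposite pattern. Over all genes these shares were 4.84% and 2.48%. The 1 gene was Col23a1, whose best ranks in Sham were low, at 2.81 and 0.432. Tnc, the injury-induced glycoprotein tenascin C, had 0, 0, 4 and 6 peaks, and its leading region in the coding sequence ranked at 72.0 and 94.6. Col5a3, a collagen chain, had 0, 0, 2 and 3 peaks, with best ranks of 1.71 and 39.7 in Re-24 h. Adamts9, a secreted matrix protease, had 0, 0, 3 and 6, with best ranks of 16.5 and 33.2. Adamts1, a protease that cleaves proteoglycans of the perineuronal net, had a Re-24 h-only 3' UTR region at 79.3 and 66.6, with 100 nt of exon to the nearest of the 9 peaks of the gene summed over both Sham lists. A coding region of Adamts1 in all 4 lists ranked at 41.8 and 55.999 in Sham and at 98.6 and 96.6 in Re-24 h. The list as a whole did not rise in this way. Of its 18 regions in all 4 lists, 5 ranked higher and 4 lower in both Re-24 h lists. Their median change of rank from Sham to Re-24 h was -4.79 points, against 1.82 over all such regions. Tnr, tenascin R of the perineuronal net, lay on both sides, with a Sham-only coding region at 89.8 and 93.7 and a Re-24 h-only 3' UTR region at 59.1 and 77.9. The Sham-only region of Tnr was also in both Re-0 h lists.

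Astrocyte and oligodendrocyte genes that are active without injury had a smaller imbalance. The astrocyte list had 7 Re-24 h-only and 3 Sham-only regions of 95, and with the same number of peaks in every list 4 and 4. Gjb6, the gap junction protein connexin 30, had a 3' UTR region at 67.1 and 87.7. Aqp4, the water channel of astrocyte end-feet, had 6, 5, 4 and 6 peaks and regions on both sides. The oligodendrocyte list had 6 and 4 regions of 93. Gpr17, a receptor of immature oligodendrocytes and a member of the precursor list, had a 3' UTR region in all 4 lists that ranked at 45.8 and 86.5 in Sham and 6.68 and 19.2 in Re-24 h.

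Immediate early genes, which neurons transcribe within minutes of activity, were on both sides, with 8 Re-24 h-only and 7 Sham-only regions of 164 and 2 to 6 on the mixed pairs. The members differed between the sides. Egr1, a zinc finger factor of this class, had 0, 0, 6 and 4 peaks, with a 3' UTR region at ranks 72.1 and 71.0 that was in none of the 4 lists of Re-0 h and Re-6 h. Junb, a subunit of the AP-1 factor, had a region 79 nt past its stop codon at 73.6 and 48.2. Arc, a regulator of AMPA receptor traffic, had a coding region at 38.4 and 44.8. Atf3, an injury-induced factor, had 0, 0, 2 and 3 peaks. On the Sham side, Egr2 had 2, 3, 0 and 0 peaks and Nr4a2, an orphan nuclear receptor, 1, 3, 0 and 0. Egr4 had a 3' UTR region at 73.1 and 82.2, and Npas4, a neuronal activity factor, a coding region at 23.7 and 23.2. Of 21 regions in all 4 lists, 8 ranked higher in both Re-24 h lists and 4 lower. These shares, 38.1% and 19.0%, were both above the 25.3% and 13.1% of all such regions. With ranks taken anew among the regions in all 4 lists, the counts were again 8 and 4, against 18.4% and 19.8% of all such regions. Only the share ranked higher then stayed above that of all such regions. Among those ranked higher, Csrnp1 had a coding region at 34.0 and 35.5 against 68.8 and 86.8. Ier3, a stress-induced survival gene, also ranked higher, with a 3' UTR region at 9.81 and 40.8 against 69.3 and 72.6.

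Heat shock and unfolded protein response genes had 9 Re-24 h-only regions of 110 (8.18%) and 5 Sham-only regions (4.55%), against 1 to 3 on the mixed pairs. Hspa1a encodes the inducible heat shock protein HSP70. Its 3' UTR region, in all 4 lists, ranked at 6.04 and 17.5 in Sham and at 86.7 and 89.4 in Re-24 h, the widest gap between the groups of any such region of a protein-coding gene. It ranked at 71.0 to 95.6 in the lists of Re-0 h and Re-6 h, so that the Sham lists stood apart from all 6 lists of operated mice with occlusion. A Sham-only coding region of Hspa1a at 64.1 and 60.5 directly adjoined a Re-24 h peak, with 0 nt of exon between them. Hspa1b, a near-identical neighbouring copy, had a Re-24 h-only 3' UTR region at 70.0 and 71.1, and values of both copies are uncertain because multi-mapped reads were removed. Bag3, a co-chaperone of HSP70, had a Re-24 h-only region centred 12 nt before the stop codon, at ranks 63.8 and 82.4 and 25 nt of exon from a Sham peak. Ppp1r15a, which directs dephosphorylation of eIF2 alpha after stress, had 0, 0, 2 and 1 peaks. Hsph1, a large heat shock protein, had 2, 1, 0 and 0 peaks.

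Among the lists with more than 100 regions, those of excitatory neurons and of the cytoskeleton had the highest shares of Sham-only regions. The cytoskeleton list had 19 Sham-only regions of 339 (5.6%) and 15 Re-24 h-only regions (4.42%), against 2, 11, 4 and 9 on the mixed pairs, so that both shares were above those of all regions. Its share of the peaks was 0.905% and 0.779% in Sham and 0.718% and 0.683% in Re-24 h. Map1b, a microtubule-associated protein of axons, had a 3' UTR region at ranks 97.3 and 90.9 that was in neither Re-24 h list. Camsap1 and Camsap2, which cap microtubule minus ends, lacked coding regions of 89.3 and 91.3 and of 85.1 and 91.2. Summed over both Re-24 h lists, peaks elsewhere in these genes numbered 1 for Map1b, 14 for Camsap1 and 8 for Camsap2. Nefm, the medium neurofilament protein, had a Re-24 h-only 3' UTR region at 78.3 and 69.8.

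The excitatory neuron list had 8 Sham-only regions of 116 (6.9%) and 7 Re-24 h-only regions (6.03%), against 1, 0, 1 and 3 on the mixed pairs. Its share of the peaks was 0.394% and 0.332% in Sham and 0.320% and 0.315% in Re-24 h. Tbr1, a factor of deep-layer neurons, had a Sham-only 3' UTR region at 58.1 and 69.5. Cux1, a factor of upper layers, had a Sham-only coding region at 49.9 and 52.6. Bcl11b, a factor of subcortical projection neurons, had a Re-24 h-only 3' UTR region at 69.4 and 53.5, 100 nt of exon from a Sham peak, that was in all 4 lists of Re-0 h and Re-6 h as well. The inhibitory neuron list had 1 region on either side, of 89.

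Ion channel and synapse lists lay near the shares of all regions. Voltage-gated channels had 12 Sham-only and 9 Re-24 h-only regions of 324, within the 6 to 14 of the mixed pairs. Cacna1a, the pore subunit of the presynaptic P/Q-type calcium channel, had 5, 3, 0 and 0 peaks and 2 or 3 in each list of Re-0 h and Re-6 h. Its 3' UTR region ranked at 65.2 and 83.6. Cacna1c, the pore subunit of the L-type channel, had 2, 2, 0 and 0 peaks. Going the other way, Hcn3 had 0, 0, 2 and 1 peaks and Kcng4 0, 0, 1 and 5. Kcna1, a potassium channel of axons, had a coding region at 91.5 and 85.8, centred 52 nt before the stop codon, that was in 3 of the 4 lists of the other times. Presynaptic genes had 7 Sham-only and 4 Re-24 h-only regions of 185, and took 0.660%, 0.546%, 0.451% and 0.459% of the peaks. Pclo, the active zone scaffold piccolo, had a Sham-only coding region at 93.0 and 91.8. Glutamate receptor and scaffold genes had 4 Sham-only and 5 Re-24 h-only regions of 219, and of 45 regions in all 4 lists 12 ranked lower and 5 higher in Re-24 h, against 13.1% and 25.3% of all such regions. In the glutamate list Dlg2 had 0, 0, 2 and 1 peaks and Homer3 0, 0, 1 and 3. Of the 46 genes of that list with a peak, these 2 had peaks in both Re-24 h lists alone and 0 in both Sham lists alone. Over all genes these shares were 4.84% and 2.48%, so such small counts do not set the list apart. Axon guidance genes had 11 Re-24 h-only and 3 Sham-only regions of 298 (3.69% and 1.01%). Sema3a, a repulsive semaphorin, had the highest-ranking Re-24 h-only region of the protein-coding genes, at 95.6 and 96.3, with a Sham peak 100 nt of exon away and ranks of 95.9 to 97.4 in 3 of the 4 other lists.

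Large genes with many peaks gave several of the highest-ranking Sham-only regions. Apc, the scaffold of the beta-catenin destruction complex, had a coding region at ranks 94.5 and 93.6 in Sham, and the Re-24 h lists held 18 peaks elsewhere in the gene, summed over both. Herc1 and Herc2, giant ubiquitin ligases, had Sham-only coding regions at 97.9 and 93.5 and at 96.7 and 86.3. The ubiquitin list as a whole had 30 Sham-only (3.3%) and 22 Re-24 h-only regions (2.42%) of 910. Afdn, an adaptor of cell junctions, had a coding region at 98.1 and 96.2, and Gcc2, a Golgi tether, one at 96.0 and 94.9, both of them in all 4 lists of Re-0 h and Re-6 h. Ppp1r9a, the actin-binding scaffold neurabin of dendritic spines, had a coding region at 94.6 and 92.6 that was in none of those lists. Histone and DNA modifying enzymes had 22 Sham-only and 17 Re-24 h-only regions of 579, with Kmt2e, of a family of histone methyltransferases, at 89.9 and 88.9 on the Sham side and Kmt2c of that family at 85.4 and 80.0 on the Re-24 h side.

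Among the m6A machinery itself, 3 of 102 regions were Re-24 h-only and 2 were Sham-only, within the 0 to 4 of the mixed pairs. Wtap, which anchors the writer complex, lay on both sides within its coding sequence, with a Re-24 h-only region at ranks 65.7 and 61.3 and a Sham-only one at 56.6 and 33.3. Another Wtap region, in all 4 lists, ranked at 79.0 and 77.8 in Sham and 50.5 and 39.4 in Re-24 h. Cbll1, another subunit of the writer complex, had a coding region at 45.1 and 49.6 in Sham and 94.4 and 86.5 in Re-24 h. Prrc2a, a proposed reader, had 1, 1, 0 and 0 peaks.

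Genes of ferroptosis and p53 that the study examined had few peaks. Slc7a11, the cystine transporter subunit whose loss favours ferroptosis, had 1 peak in each of the 4 lists, and its rank was 33.1 points higher on average in Re-24 h than in Sham. The lists of a single group also lay far apart, at 37.4 and 71.3 in Re-0 h and at 40.2 and 59.7 in Re-6 h. Gpx4, the lipid hydroperoxide reductase, had no peak, and Trp53, the p53 gene, had 0, 0, 0 and 1. This Trp53 peak was low-ranking, at 6.93, and a further one ranked at 5.19 in Re-0 h replicate 1. The paper, which used m6A levels and not ranks of peaks, reports no hypermethylation of Slc7a11 or Gpx4 mRNA after MCAO/R. The ferroptosis and iron list had 0 Re-24 h-only and 2 Sham-only regions of 63, with 1 to 5 on the mixed pairs. Srxn1, which reduces oxidized peroxiredoxin, held the leading Sham-only region at 65.6 and 59.4.

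Re-24 h-only and Sham-only regions differed in their position along the transcript. The coding sequence (CDS) held the middle of 46.3% of the Re-24 h-only regions (Wilson 95% interval 43.8 to 48.9) and of 59.0% of the Sham-only regions (56.04 to 61.9). The mixed pairs gave 48.3% to 56.8% and the regions in all 4 lists 51.8%. The 3' UTR held 34.6% (32.2 to 37.1) and 27.2% (24.6 to 29.9), with 24.3% to 36.8% on the mixed pairs. These intervals cover counting error only, since all regions of a side share 2 libraries. In genes with peaks on both sides the CDS shares were 48.0% and 62.5%, an alternative added after the data were seen. Exons of non-coding transcripts held 10.4% of the Re-24 h-only and 6.06% of the Sham-only regions.

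**Figure D4:**
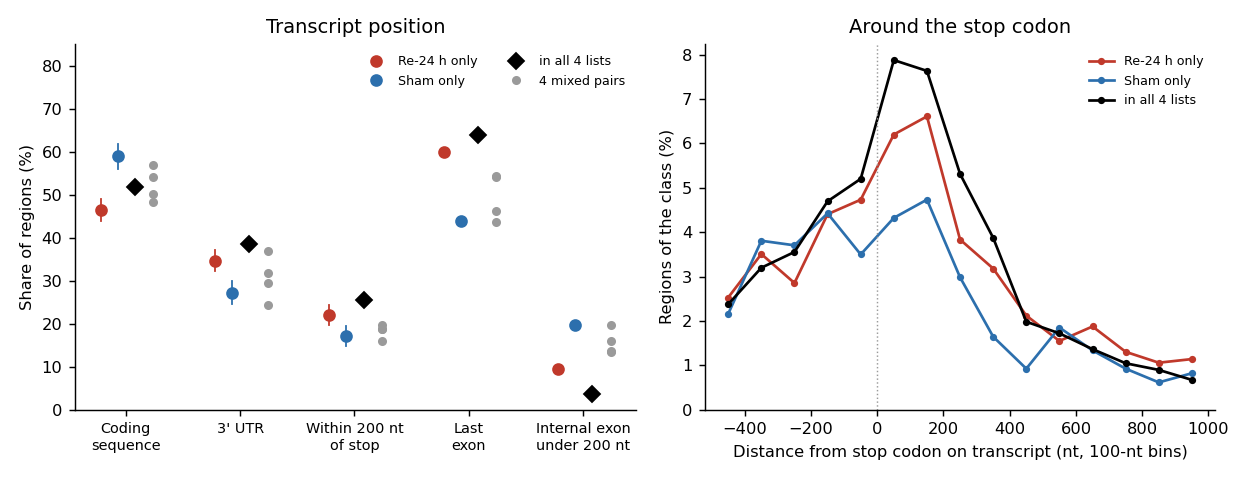
Left, share of regions (percent) by position of their middle, for Re-24 h-only regions (red), Sham-only regions (blue), regions in all 4 lists (black diamonds) and the 4 mixed pairs (grey), with Wilson 95% intervals as vertical lines in the first 3 columns. Right, share of the regions of a class (percent) in bins of 100 nt around the stop codon. Red lies below blue for coding sequence and short internal exons and above it for the last exon, where the red point of 59.8% lies above all grey points.

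The difference was largest by kind of exon. The last exon held 59.8% of the Re-24 h-only and 43.8% of the Sham-only regions, against 43.7% to 54.3% on the mixed pairs and 64.0% of the regions in all 4 lists. Internal exons under 200 nt held 9.46% (116 of 1226) and 19.8% (192 of 972), against 13.4% to 19.7% on the mixed pairs and 3.68% of the regions in all 4 lists. The Re-24 h-only value lay outside the range of the mixed pairs on both measures, and the Sham-only value lay near one end of that range. Within 200 nt of the stop codon lay 21.9% of the Re-24 h-only (19.7 to 24.3) and 17.1% of the Sham-only regions (14.8 to 19.6), with 16.0% to 19.7% on the mixed pairs. This order turned without Re-24 h replicate 1 (17.3% and 17.8%) and without Re-24 h replicate 2 (17.2% and 19.7%). The RRACH density was 18.0 and 16.5 words per kb, with 16.7 to 17.8 on the mixed pairs and 18.9 in the regions of all 4 lists.

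Over all peaks of a library, the shares in the CDS and in short internal exons differed in the same direction and by less. The CDS share was 54.1% and 54.7% in the Sham lists and 52.4% and 50.7% in the Re-24 h lists, and the share in internal exons under 200 nt was 13.04% and 12.8% against 10.9% and 10.7%. Neither pair overlapped. The 2 Re-0 h lists alone spanned 50.4% to 54.9% for CDS, a wider range than the 4 lists, and 11.0% to 12.9% for short internal exons. Whether RNA integrity or library depth moved with this was not tested.

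Regions in all 4 lists were compared by rank. In 1495 of the 5905 (25.3%) both Re-24 h ranks lay above both Sham ranks, and in 774 (13.1%) both lay below. The mixed pair Sham 2 with Re-24 h 2 was higher in 1431 and its opposite in 575, and the other mixed division gave 758 and 872. The median rank of these regions was 74.7, 80.1, 79.5 and 82.4 in the 4 lists, and their median shift was 1.82 points towards Re-24 h. When ranks were taken anew among these 5905 regions only, an alternative added after the data were seen, 1085 (18.4%) ranked higher and 1168 (19.8%) lower. The mixed pairs then had 832 to 1002. The surplus of higher over lower regions was thus not kept under the second ranking.

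The widest gaps upwards, after that of Hspa1a, were in Tarbp1, Medag, Plce1, Ifit3b, Pop7, Ptger1 and Gpr85. Tarbp1, a tRNA methyltransferase, had a coding region at 3.54 and 0.0347 in Sham and 67.1 and 73.5 in Re-24 h. Ifit3b, an interferon-induced protein, had a 3' UTR region at 2.55 and 6.16 against 71.8 and 57.6. Ptger1, the prostaglandin E2 receptor EP1, had one at 25.4 and 39.1 against 90.5 and 89.3. Plce1, a phospholipase C activated by Ras, had a coding region at 22.6 and 16.5 against 74.5 and 83.5. In the opposite direction the leading genes were Kcnj16, Dhx32, Sowaha, Pnpla8, Cactin, 1700025G04Rik, Zfp809 and Map3k13. Kcnj16, the inward rectifier subunit Kir5.1 of astrocytes, had a 3' UTR region at 83.5 and 84.5 in Sham and 21.2 and 19.1 in Re-24 h. Zfp809, a KRAB zinc finger protein that silences retroviral DNA, had a coding region at 94.4 and 83.3 against 29.9 and 50.8. Map3k13, a kinase of axon injury signalling, had a 3' UTR region at 62.7 and 68.2 against 14.8 and 31.1.

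**Figure D5:**
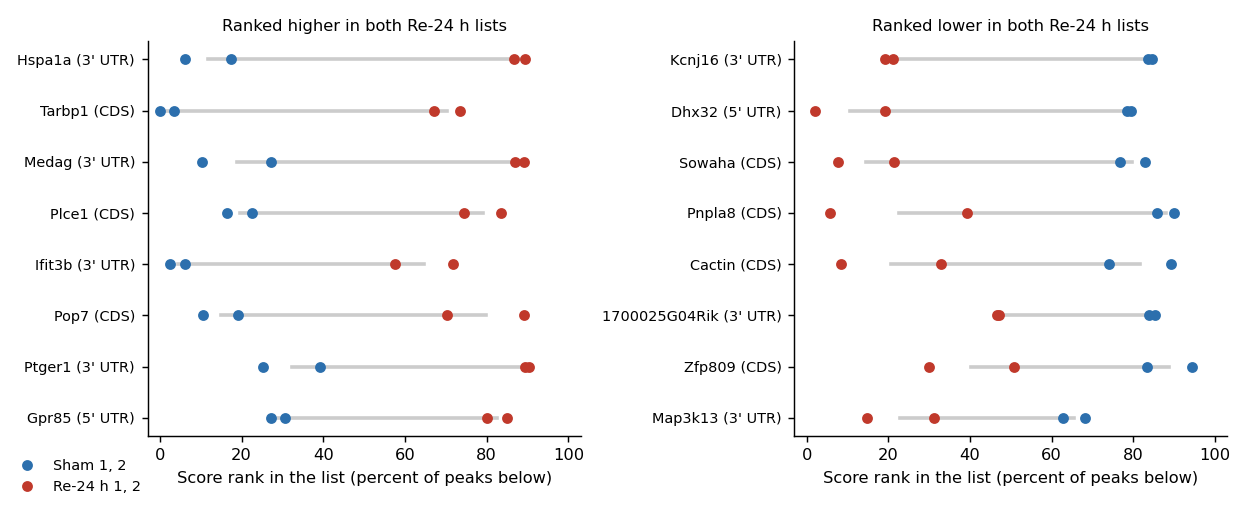
Score rank (percent of the peaks of the list with a lower score) of the region with the widest gap in 8 genes per direction, in the Sham (blue) and Re-24 h (red) lists, 1 point per library. Grey lines join the group means. The genes were chosen for this gap, so the separation of the points is a description, from Hspa1a at 6.04 and 17.5 against 86.7 and 89.4 to Map3k13 at 62.7 and 68.2 against 14.8 and 31.1.

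By gene list, the immune genes had the highest median shift of those with more than 25 shared regions. Of their 28 regions, 11 ranked higher and 1 lower (10 and 2 with the second ranking), against 25.3% and 13.1% of all shared regions (18.4% and 19.8%), with a median shift of 5.69 points against 1.82 over all. Members with the widest gaps, named after their values were seen, were receptors of cytokines. Il1r1, the interleukin 1 receptor, had a coding region at 27.2 and 22.6 against 74.4 and 92.9, Ifngr1 one at 59.4 and 43.0 against 84.2 and 88.5, and Il6ra a 3' UTR region at 31.2 and 61.8 against 85.5 and 85.3. Jak1, a kinase of interferon and interleukin 6 receptors, was the lower one, at 92.7 and 92.9 against 74.9 and 81.0.

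Autophagy and mTOR genes had 12 higher and 3 lower of 34, that is 35.3% and 8.82% against the same shares of all shared regions (11 and 3 with the second ranking). Their share of all peaks lay the other way, at 0.527% and 0.586% in Sham and 0.461% and 0.463% in Re-24 h. Of the 57 genes with a peak, 2 had peaks in both Sham lists alone and 0 in both Re-24 h lists alone. Over all genes these shares were 2.48% and 4.84%. Foxo1, a transcription factor of starvation and stress, had a coding region at 50.8 and 71.1 against 90.7 and 93.9. TGF-beta and BMP genes had 11 and 4 of 26 (7 and 4). Smad3, the signal transducer of this pathway, had one 3' UTR region at 37.0 and 33.6 against 87.1 and 75.9 and another at 69.3 and 55.6 against 44.0 and 11.8. The zinc finger genes named Zfp, a large family of mostly KRAB-type repressors, had 112 higher and 25 lower of 331, that is 33.8% and 7.55%. With the second ranking these were 81 and 46. Zfp90 had a coding region at 31.1 and 46.2 against 84.7 and 86.1. Their Re-24 h-only share was that of all regions, at 3.99%. Zfp genes are a family of similar sequences, and how multi-mapped reads between them were lost was not measured.

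Guidance genes and cadherins were among several lists with more regions ranked lower than higher under both rankings. Axon guidance genes had 6 higher and 10 lower of 53 (4 and 15 with the second ranking), and cadherins and catenins 4 and 7 of 37 (2 and 12). Glutamate receptor and scaffold genes had 5 and 12 of 45 (4 and 11) and voltage-gated channels 9 and 13 of 60 (8 and 13). Presynaptic genes had 6 and 7 of 36 (5 and 9) and excitatory neuron genes 4 and 6 of 26 (3 and 7). The inhibitory neuron, oligodendrocyte precursor and m6A machinery lists went the same way. Over all 5905 shared regions the order of higher and lower turned as well, from 25.3% and 13.1% to 18.4% and 19.8%, so a turn within a list is not particular to it. It was seen for protocadherins (15 higher and 5 lower of 72, becoming 12 and 15), synaptic adhesion genes (17 and 12 of 77, becoming 14 and 19), ubiquitin genes (32 and 22 of 167, becoming 23 and 44), histone and DNA modifying enzymes (24 and 17 of 101, becoming 13 and 23), Wnt genes (8 and 6 of 41, becoming 2 and 8), p53 and cell death genes (6 and 2 of 26, becoming 4 and 8) and the cytoskeleton (11 and 6 of 38, becoming 8 and 9).

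Presence at the other times after occlusion was counted for each class. Of the Re-24 h-only regions, 31.3% and 47.9% overlapped a peak of the 2 Re-0 h lists, and 42.5% and 48.1% one of the 2 Re-6 h lists. The Sham-only regions gave 44.7% and 51.4%, and 44.0% and 46.7%. In none of these 4 lists were 22.5% of the Re-24 h-only regions (331) and 18.0% of the Sham-only regions (196), against 18.0% to 20.7% on the mixed pairs. The Re-24 h-only share lay above this range and the Sham-only share at its lower end. All 4 lists held 10.8% and 13.1%, with 10.2% to 14.8% on the mixed pairs. Most regions of either class were thus in at least 1 list of Re-0 h or Re-6 h.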

How the data were processed

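Peak lists from MeRIP-seq of peri-infarct cortex were compared, 2 Sham and 2 Re-24 h. RNA was fragmented to about 100 nt by the methods and 200 nt by the labels, and sequenced on an Illumina NovaSeq instrument. The authors trimmed the reads (Trim Galore), aligned them to GRCm39 (HISAT2), dropped reads that did not map or mapped to several places (SAMtools), and ran exomePeak2 with cutoffs of 0.05 for p and 0.5 for log2 fold change. They deposited 1 list per IP library with a score for each peak, whose scale is not given in the sources used here. The lists hold no counts, so depth is unknown.

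From there, the lists were read and counted in Python 3.11.15 with numpy 2.4.6, intervals came from scipy 1.17.1, and plots were drawn in matplotlib 3.10.9. Each peak was assigned to the gene with the largest exonic overlap on its strand (GENCODE M39), and its exonic part was rebuilt, since the lists give 1 block across introns. Regions were placed by the middle of their exonic part, with CDS before 3' UTR and 5' UTR, and exon kind and stop distance by the transcript with the longest coding sequence. The joining was tested on artificial peaks of known class. Comparisons are counts without a test. The members and the 38 gene lists were chosen with earlier results of these data known. Named genes were the 10 per side with the highest lower rank, the 8 per side without a peak of the other group, the 8 per direction with the widest rank gap, and up to 4 per list and side. Other genes were named after their values were seen. The input libraries were not used here. Alternatives are given in the closing section.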

Additional observations from a re-analysis of the deposited data

How the results depend on the processing

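Leaving out each list in turn changed every count by construction, since a side of 1 list has fewer conditions to meet. Without Sham replicate 1 or 2 or Re-24 h replicate 1 or 2, the Re-24 h-only regions were 2448 to 9006, the Sham-only regions 1822 to 7167, and the shared regions ranked higher and lower 2444 to 3340 and 1588 to 2206. The excess over the mixed divisions, which then includes the regions of a lone list, ranged from -50, without Sham replicate 2, to 2096.5. The CDS share was 47.0% to 50.5% for Re-24 h-only and 54.7% to 59.2% for Sham-only regions, and the share near the stop codon 17.2% to 22.6% and 15.0% to 19.7%. With the replicate block, which compares the groups within a replicate number, the excess was 709. The sources do not say that a number marks a shared animal or day, and lists without counts gave no check of the pairing.

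With the higher-scoring 50% of each list, there were 772 Re-24 h-only and 557 Sham-only regions, 891 shared regions ranked higher, and a CDS share of 49.9% among Re-24 h-only regions. A window of 100 nt around the stop codon gave 10.9% and 7.82%. Ranks retaken among the shared regions gave 1168 ranked lower, and genes with a peak on both sides a CDS share of 62.5% for Sham-only regions. These last 2 were chosen after seeing the data. Of the values over all regions under alternatives that kept all lists, 48 stayed within 1.5 times the count, or within the interval of the share, and these 8 did not. By list, the higher-scoring 50% gave 7 Re-24 h-only and 0 Sham-only regions for reactive astrocytes, 10 and 2 for immune genes and 39 and 14 for Zfp genes. The cause of these shifts was not tested.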
